A study of Mus musculus with 2 samples.

Results

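C-type lectins, Fc receptors and Siglecs are receptor families with which macrophages, dendritic cells and other immune cells bind sugars, antibodies and sialic acids. They were taken here as the protein-coding genes whose mouse symbol begins with Clec and a digit, Cd209, Fcgr (1 to 4, or t), Fcer (1 or 2) or Siglec, together with Mrc1, Mrc2, Marco, Msr1, Cd68 and Cd163. The name rule fitted 60 genes of the deposited tables, and 57 of them were protein-coding in the annotation used, of 21474 protein-coding genes in all. The 3 symbols left out were the pseudogenes Clec2f and Clec2j, with 0 counts in both libraries, and Clec7a, the beta-glucan receptor Dectin-1. Clec7a is classed as a polymorphic pseudogene in that annotation, and it had 4.45 TPM in replicate 1 and 6.29 TPM in replicate 2.

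The data are polyadenylated RNA-seq libraries of whole thymus from C57BL/6J mice aged 8 weeks, with no treatment or mutation named, made as replicates 1 and 2 of 1 group. Each library pooled male and female littermates, the labels give 1 donor entry for both, and the health state is given as unknown. Levels are the deposited TPM (the gene's share of all transcripts, corrected for length and scaled to the same total in each library), and the deposited tables held 48.6 M fragments over genes in replicate 1 and 62.1 M in replicate 2. With 1 group there is no contrast between conditions, so the levels are described, and the 2 libraries are set against each other only to show how far each level holds. Any p-value given compares the reads of these 2 libraries, not conditions, and whether the samples came from separate animals is not given. The tissue label was checked against 6 thymocyte and 6 thymic epithelial markers, all of which passed 10 TPM: Rag1 had 276 TPM in replicate 1 and 276 TPM in replicate 2, and Foxn1 had 22.7 TPM in replicate 1 and 24.7 TPM in replicate 2. In a bulk sample, fewer cells of a type and less RNA per cell cannot be told apart.

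The families share a logic of paired signals. Activating members either carry a tyrosine-based activation motif or borrow one from a small adaptor, chiefly the FcR gamma chain (Fcer1g) or DAP12 (Tyrobp), and pass the signal to the kinase Syk. Inhibitory members carry an inhibitory motif that recruits the phosphatases SHP-1 (Ptpn6) or SHIP1 (Inpp5d), and a further set works in uptake of particles and glycoproteins with little signalling of its own. In the thymus, macrophages and dendritic cells that carry such receptors clear dying thymocytes and present antigen, while thymocytes make up most of the cells.

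To show the composition of the members' promoters, 4 sequences are given first: the promoter with the most matches to the purine motif GAGGAA among the mannose receptors, those of the 2 most abundant members, and that of the most abundant member with many CG dinucleotides. GAGGAA, on either strand, is the core that the myeloid factor PU.1 is known to recognise, and no other motif was searched. Each sequence is the 250 bases before the RefSeq gene start, on the strand of the gene, 5′ to 3′, from RefSeq on GRCm38.p6. Capitals mark GAGGAA or its reverse complement TTCCTC in Mrc1 (chr2:14229164-14229413, plus strand) and Cd68 (chr11:69666171-69666420, minus strand). Capitals mark CG in Fcer1g (chr1:171234350-171234599, minus strand) and Clec16a (chr16:10545089-10545338, plus strand).
Mrc1: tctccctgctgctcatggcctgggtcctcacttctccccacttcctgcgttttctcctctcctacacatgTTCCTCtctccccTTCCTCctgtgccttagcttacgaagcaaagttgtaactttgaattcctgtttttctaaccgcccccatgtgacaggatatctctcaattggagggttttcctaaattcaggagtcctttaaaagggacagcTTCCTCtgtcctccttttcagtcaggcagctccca
Cd68: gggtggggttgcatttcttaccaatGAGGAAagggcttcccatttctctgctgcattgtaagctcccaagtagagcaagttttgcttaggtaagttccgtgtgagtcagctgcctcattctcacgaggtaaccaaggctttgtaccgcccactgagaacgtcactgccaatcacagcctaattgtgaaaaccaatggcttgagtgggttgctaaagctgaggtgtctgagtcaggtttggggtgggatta
Fcer1g: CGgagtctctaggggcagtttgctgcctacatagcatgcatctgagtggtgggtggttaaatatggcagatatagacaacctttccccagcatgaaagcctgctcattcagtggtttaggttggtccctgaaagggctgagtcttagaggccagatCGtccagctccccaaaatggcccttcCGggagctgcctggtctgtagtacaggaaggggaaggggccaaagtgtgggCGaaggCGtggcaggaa
Clec16a: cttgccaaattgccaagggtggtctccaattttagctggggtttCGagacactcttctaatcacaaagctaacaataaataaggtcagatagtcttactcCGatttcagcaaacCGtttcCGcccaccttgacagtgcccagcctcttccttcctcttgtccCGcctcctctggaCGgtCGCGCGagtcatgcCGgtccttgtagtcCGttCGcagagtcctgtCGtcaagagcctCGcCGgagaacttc

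Of the 57 members, 47 had an entry in the RefSeq promoter table. CG dinucleotides were few: the 29 of these members that reached a mean of 1 TPM had a median of 3 CG in 250 bases, and 1 of them, Clec16a, had 10 or more (3.45%). Among the 10149 protein-coding genes in the table at that level the median was 15, and 71.3% had 10 or more. Below 1 TPM, 1 further member, Clec2l, had many, with 21. GAGGAA occurred on either strand in 15 of the 29 promoters (51.7%), against 22.7% of the protein-coding genes at that level and 23.1% of all 27025 promoters in the table. Among genes at that level with under 10 CG, the share was 50% of 28 members and 29.6% of 2913 protein-coding genes. The Mrc1 promoter held 3 matches, at 180, 167 and 35 bases before the start, and the Cd68 promoter held 1, at 225 bases. The Fcer1g promoter held no match to these letters. A match is a run of letters in a window, not a site shown to be bound. For 34 of the 47 windows, the next 20 bases stood in the first line of an annotated transcript's sequence. The Clec12a window begins at base 129349994 of chromosome 6, inside the gene, which is annotated from base 129342691 to 129365303. The windows may therefore not all be the promoter in use.

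**Figure D1:**
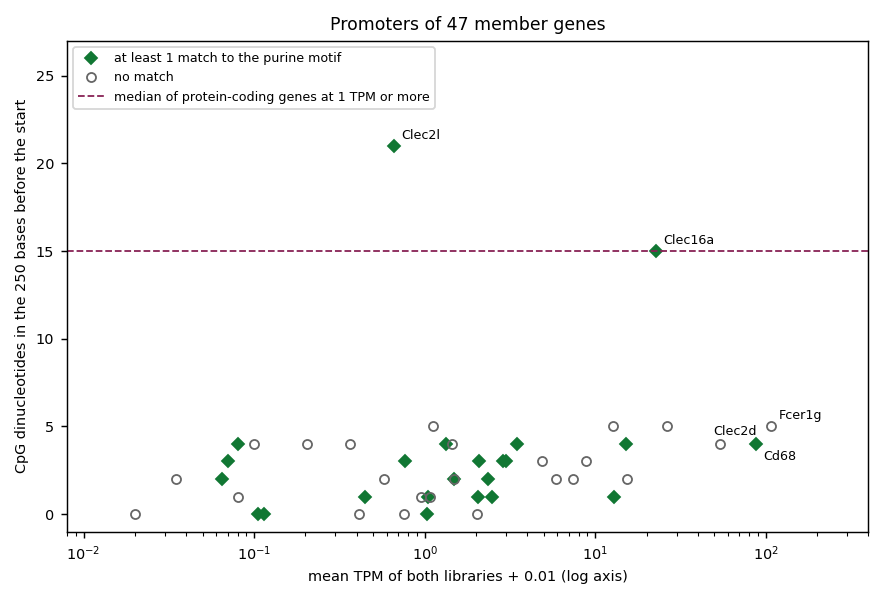
CpG dinucleotides in the 250 bases before the start (vertical axis) against mean TPM of both libraries plus 0.01 (horizontal log axis), 1 point for each of 47 members, with filled diamonds for promoters that hold the purine motif. All but Clec2l and Clec16a lie at 5 or fewer, below the dashed line at 15 that marks the median of protein-coding genes at 1 TPM or more.

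Most of the module's RNA came from a few genes. The 57 members summed to 452 TPM in replicate 1 and 484 TPM in replicate 2, a mean of 468 ± 23.1 TPM (SD, n = 2), or 0.0452% of all TPM in replicate 1 and 0.0484% in replicate 2. Fcer1g and Cd68 held 41.8% of that sum, Clec2d brought the share of the 3 highest to 53.4%, and the 11 members with a mean of 10 TPM or more held 81.5%. A mean of 1 TPM was reached by 35 members (61.4%), against 60.3% of protein-coding genes, so detection was close to the background. A mean of 10 TPM was reached by 19.3% of members, against 36.2% of protein-coding genes, and the median member had 1.47 TPM where the median protein-coding gene had 3.30 TPM. In both libraries, 30 members passed 1 TPM. At the low end, 10 members had a mean under 0.1 TPM, and Clec3a and Clec4a4 had 0 counts in both libraries.

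**Figure D2:**
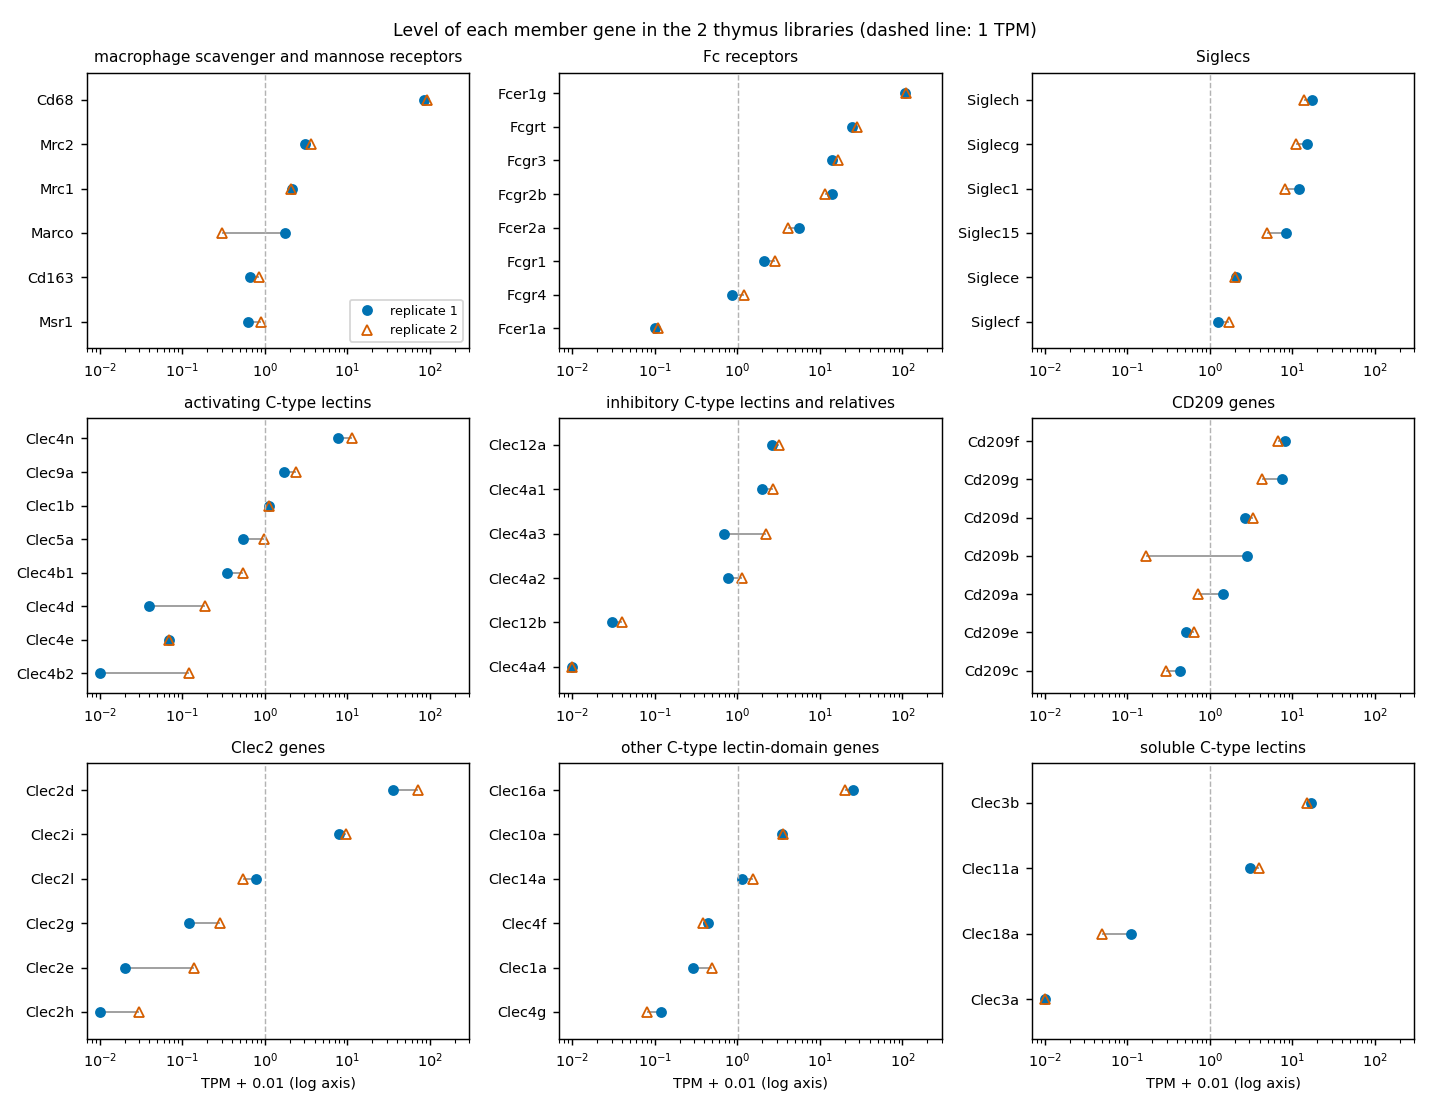
TPM plus 0.01 (log axis) of each of the 57 members in replicate 1 (filled circles) and replicate 2 (open triangles), in 9 panels by role, with a dashed line at 1 TPM. Fcer1g and Cd68 lie farthest right, all 6 Siglecs lie right of the line by their mean, and Cd209b and Marco have the widest gaps between the libraries with the circle on the right.

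Fc receptors were among the most abundant members: 7 of the 8 reached 1 TPM and 4 reached 10 TPM, with a median of 8.78 TPM. Fcer1g, the gamma chain that carries the activation motif for several Fc receptors and C-type lectins, had 106 TPM in replicate 1 and 109 TPM in replicate 2. The libraries were nearly level for it, and the deposited TPM intervals overlapped, from 100.2 to 110.3 TPM in replicate 1 and from 103.8 to 112.5 TPM in replicate 2. Fcgrt, the heavy chain of the neonatal Fc receptor that recycles IgG and albumin, had 24.4 TPM in replicate 1 and 28.5 TPM in replicate 2. The activating low-affinity IgG receptor Fcgr3 had 13.9 TPM in replicate 1 and 16.3 TPM in replicate 2, and its inhibitory counterpart Fcgr2b had 13.8 TPM in replicate 1 and 11.6 TPM in replicate 2. The pair was level in replicate 1 and Fcgr3 was higher in replicate 2, but reads from stretches they share were divided between them. Fcer2a (CD23), the low-affinity IgE receptor of B cells and itself a C-type lectin, had 5.60 TPM in replicate 1 and 4.08 TPM in replicate 2. Fcgr1, the high-affinity IgG receptor of macrophages, had 2.09 TPM in replicate 1 and 2.87 TPM in replicate 2, and the activating receptor Fcgr4 had 0.85 TPM in replicate 1 and 1.21 TPM in replicate 2. Fcer1a, the IgE-binding chain of mast cells and basophils, stood at the other end with 0.09 TPM in replicate 1 and 0.10 TPM in replicate 2, from 2 and 3 counts. Its partner chain Ms4a2, outside the module, had 0 counts in replicate 1 and 2 counts in replicate 2. The 8 markers of mast cells, basophils and eosinophils summed to 17.8 TPM in replicate 1 and 18.8 TPM in replicate 2.

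All 6 Siglecs, receptors for sialic acid, reached 1 TPM and 3 reached 10 TPM, with a median of 8.39 TPM. Siglech, a DAP12-coupled receptor that marks plasmacytoid dendritic cells, had 17.1 TPM in replicate 1 and 13.7 TPM in replicate 2. The 6 markers of that cell type summed to 1565 TPM in replicate 1 and 1651 TPM in replicate 2, but the direction of that sum rests on Cox6a2, with 25.3 TPM in replicate 1 and 342 TPM in replicate 2. Without it, the other 5 markers summed to 1540 TPM in replicate 1 and 1308 TPM in replicate 2, each higher in replicate 1 by TPM, as Siglech was. On the scaled counts of the test described with the libraries, Bst2 had a log2 ratio of -0.01. There Tcf4, Pacsin1, Ly6d and Runx2 had 0.05, 0.18, 0.28 and 0.37. Siglech had 0.13, with an adjusted p of 0.126 in the exact binomial test. Most of the marker sum came from Ly6d and Bst2, which thymocytes and other cells also express. Siglecg, an inhibitory receptor best known from B cells, had 14.9 TPM in replicate 1 and 10.9 TPM in replicate 2. Siglec1, the macrophage sialoadhesin, had 12.1 TPM in replicate 1 and 8.20 TPM in replicate 2. By TPM these 3 genes stood in the same order in both libraries. The deposited TPM intervals of Siglech and Siglecg overlapped in both, and those of Siglecg and Siglec1 overlapped in replicate 1 only. The order of neighbours is therefore not settled by these intervals. Siglec15, a DAP12-coupled receptor of osteoclasts, had 8.31 TPM in replicate 1 and 4.90 TPM in replicate 2. Siglece and Siglecf, known from myeloid cells and eosinophils, were lower, with means of 2.05 and 1.47 TPM. The eosinophil genes Prg2 and Epx had 2.79 and 2.68 TPM in replicate 1 and 4.30 and 1.71 TPM in replicate 2.

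Among the macrophage scavenger and mannose receptors, 4 of 6 reached 1 TPM and 1 reached 10 TPM. Cd68, an endosomal glycoprotein used as a macrophage marker, had 84.4 TPM in replicate 1 and 92.1 TPM in replicate 2. It stood far above the rest of its group, whose highest member was Mrc2, the collagen receptor Endo180 of stromal cells and macrophages, with 3.02 TPM in replicate 1 and 3.64 TPM in replicate 2. The macrophage mannose receptor Mrc1 had 2.10 TPM in replicate 1 and 2.04 TPM in replicate 2. Cd163, the haemoglobin–haptoglobin receptor, and Msr1, the class A scavenger receptor, both had a mean of 0.745 TPM. Marco, a scavenger receptor of restricted macrophage subsets, had 1.75 TPM in replicate 1 and 0.29 TPM in replicate 2.

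C-type lectins with an activating signal were mostly low: 3 of 8 reached 1 TPM, none reached 10 TPM, and the median was 0.60 TPM. Clec4n, the fungal mannan receptor Dectin-2 that signals through Fcer1g, led with 7.61 TPM in replicate 1 and 11.2 TPM in replicate 2. Clec9a, a receptor for dead cells on cross-presenting dendritic cells, had 1.68 TPM in replicate 1 and 2.36 TPM in replicate 2, beside 8 markers of classical dendritic cells that summed to 302 TPM in replicate 1 and 332 TPM in replicate 2. Of that sum, 90.2% in replicate 1 and 88.3% in replicate 2 came from Ccr7, Cd83 and Sirpa, and thymocytes also express Ccr7. The 5 other markers summed to 29.6 TPM in replicate 1 and 38.9 TPM in replicate 2. Clec1b, the podoplanin receptor of platelets, had 1.10 TPM in replicate 1 and 1.11 TPM in replicate 2. Clec5a and Clec4b1 followed with means of 0.76 and 0.44 TPM. The glycolipid receptors Clec4e (Mincle) and Clec4d, with Clec4b2, had means of 0.055 to 0.105 TPM, from at most 10 counts in a library.

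Of the 6 inhibitory C-type lectins and their close relatives, 3 reached 1 TPM. Clec12a, which carries an inhibitory motif, had 2.62 TPM in replicate 1 and 3.16 TPM in replicate 2. Clec4a1 had 2.00 TPM in replicate 1 and 2.68 TPM in replicate 2, and Clec4a3 had 0.68 TPM in replicate 1 and 2.20 TPM in replicate 2. The remaining members were Clec4a2 (DCIR), with a mean of 0.94 TPM, Clec12b with 0.025 TPM, and Clec4a4, which had 0 counts.

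The CD209 genes are the mouse relatives of the human adhesion lectin DC-SIGN, and 5 of 7 reached 1 TPM while none reached 10 TPM. The group summed to 23.4 TPM in replicate 1 and 16.1 TPM in replicate 2. Cd209f had 8.14 TPM in replicate 1 and 6.61 TPM in replicate 2, Cd209g had 7.44 TPM in replicate 1 and 4.31 TPM in replicate 2, and Cd209d had 2.65 TPM in replicate 1 and 3.35 TPM in replicate 2. Cd209b, known as SIGN-R1 from macrophages of the splenic marginal zone, had 2.81 TPM in replicate 1 and 0.16 TPM in replicate 2, and Cd209a had 1.44 TPM in replicate 1 and 0.70 TPM in replicate 2. Cd209e and Cd209c had means of 0.57 and 0.355 TPM. The median of the group was 1.49 TPM over both libraries, 2.65 TPM in replicate 1 and 0.70 TPM in replicate 2.

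Several Clec2 genes encode ligands of the NKR-P1 receptors of natural killer cells, and 2 of the 6 Clec2 members reached 1 TPM. Clec2d (Clr-b), ligand of an inhibitory NKR-P1 receptor, had 36.1 TPM in replicate 1 and 72.1 TPM in replicate 2, the third highest mean of the module. Clec2i (Clr-g) had 8.02 TPM in replicate 1 and 9.55 TPM in replicate 2, and Clec2l had 0.78 TPM in replicate 1 and 0.53 TPM in replicate 2. Clec2g, Clec2e and Clec2h had means of 0.195, 0.07 and 0.01 TPM. The 4 natural killer cell markers examined summed to 2.52 TPM in replicate 1 and 3.05 TPM in replicate 2, with opposite moves inside the list. Klrb1c, itself an NKR-P1 receptor, had 62 counts in replicate 1 and 215 in replicate 2, a log2 ratio of -1.36 with an adjusted p of 1.298e-11 in the exact binomial test described with the libraries. Ncr1 and Eomes had 0.48 and 1.18 TPM in replicate 1 and 0.17 and 0.62 TPM in replicate 2.

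Of 6 other genes with a C-type lectin name or domain, 3 reached 1 TPM. Clec16a, which acts in autophagy inside the cell rather than as a surface lectin, had 25.3 TPM in replicate 1 and 19.9 TPM in replicate 2. Clec10a, the galactose-type lectin of macrophages, had 3.42 TPM in replicate 1 and 3.61 TPM in replicate 2, and Clec14a, an endothelial protein, had 1.12 TPM in replicate 1 and 1.52 TPM in replicate 2. The 5 endothelial markers summed to 61.2 TPM in replicate 1 and 62.5 TPM in replicate 2. Clec4f of Kupffer cells, endothelial Clec1a and Clec4g of liver sinusoids had means of 0.40, 0.385 and 0.09 TPM. Of the 4 soluble members, Clec3b (tetranectin), a plasminogen-binding protein, had 16.8 TPM in replicate 1 and 15.2 TPM in replicate 2. Clec11a, a secreted bone growth factor, had 3.05 TPM in replicate 1 and 3.90 TPM in replicate 2, Clec18a had 0.10 TPM in replicate 1 and 0.04 TPM in replicate 2, and cartilage Clec3a had 0 counts.

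The adaptors, kinases and phosphatases through which these receptors signal were far more abundant than most of the receptors. Of 16 signalling genes, 15 reached 1 TPM and 13 reached 10 TPM, with a median of 25.8 TPM. Tyrobp (DAP12) had 205 TPM in replicate 1 and 294 TPM in replicate 2, and the adaptor Hcst (DAP10) had 155 TPM in replicate 1 and 200 TPM in replicate 2. Inpp5d had 256 TPM in replicate 1 and 221 TPM in replicate 2, and Ptpn6 had 178 TPM in replicate 1 and 166 TPM in replicate 2. Syk had 20.4 TPM in replicate 1 and 17.6 TPM in replicate 2, and Card9, which relays Syk signals of C-type lectins in myeloid cells, had 32.7 TPM in replicate 1 and 40.2 TPM in replicate 2. Several of these genes also act in T cell signalling, so their level is not that of the receptor pathway alone.

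Between the libraries, 43 members had enough counts for a test, a two-sided exact binomial test on rounded counts with TMM-scaled library sizes (edgeR), with Benjamini–Hochberg adjustment over 17199 genes. At an adjusted p under 0.05 and a ratio of at least 2-fold, 5 of the 43 differed (11.6%), against 4.62% of all genes tested. Higher in replicate 1 were 3 members, Cd209b, Marco and Cd209a, where 1.24% of all genes were, and higher in replicate 2 were 2 members, Clec2d and Clec4a3, where 3.38% of all genes were. An adjusted p under 0.05 at any size was reached by 25 of the 43 (58.1%), near the 52% of all genes, so most genes differed by more than counting error. With a negative binomial test that takes a common spread from all genes, 2 members passed the same rule, Cd209b and Marco, against 1.27% of all genes, and Cd209a, Clec2d and Clec4a3 did not pass it. In that test, 4 of the 43 had an unadjusted p under 0.05, against 4.09% of all genes. With 1 library on each side, this spread is that between the 2 libraries over genes, not one measured for each gene.

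Cd209b had 171 counts in replicate 1 and 14 in replicate 2, a ratio of 16.5 on scaled counts (95% interval 9.55 to 30.8, counting error only), with an adjusted p of 1.249e-45 in the exact binomial test and 3.908e-09 in the negative binomial test. The deposited TPM intervals were 2.46 to 3.37 in replicate 1 and 0.137 to 0.393 in replicate 2, and did not overlap. Marco had 105 counts in replicate 1 and 24 in replicate 2, a ratio of 5.90 (3.76 to 9.62), with an adjusted p of 2.526e-18 in the exact binomial test and 0.0005733 in the negative binomial test. Both genes are low, and both are listed above 1 TPM only through replicate 1, as is Cd209a. Clec4a3 is listed above 1 TPM only through replicate 2. Cd209a had 64 counts in replicate 1 and 43 in replicate 2, a ratio of 2.01 (1.34 to 3.03) that lies on the threshold, with an adjusted p of 0.001078 in the exact binomial test. In the other direction, Clec2d had 1263 counts in replicate 1 and 3494 in replicate 2, a log2 ratio of -1.04, with an adjusted p of 8.53e-115 in the exact binomial test. Clec4a3 had 26 counts in replicate 1 and 106 in replicate 2, a log2 ratio of -1.60, with an adjusted p of 1.947e-07 in the exact binomial test.

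Levels of markers of other cells also differed between the libraries. Of 4 liver markers (Alb, Apoa1, Ttr and the sinusoid gene Stab2), 3 were higher in replicate 1 by the same rule, and the list summed to 77.9 TPM in replicate 1 and 10.8 TPM in replicate 2, with no marker at 0. Alb had 44.2 TPM in replicate 1 and 0.18 TPM in replicate 2, while Stab2 had 6.04 TPM in replicate 1 and 6.67 TPM in replicate 2. Of 4 fat markers, Ucp1 was higher in replicate 1, and that list summed to 1260 TPM in replicate 1 and 890 TPM in replicate 2. Without Ucp1, the other 3 fat markers summed to 915 TPM in replicate 1 and 766 TPM in replicate 2. By TPM, 2 of these 3 were higher in replicate 1 and 1 in replicate 2. Of 10 macrophage markers none passed the rule, and the list summed to 981 TPM in replicate 1 and 1345 TPM in replicate 2. Lyz2, C1qc and C1qb made up 78.1% of that sum in replicate 1 and 80.2% in replicate 2. By TPM, 2 of the 10 markers were higher in replicate 1 and 8 in replicate 2. Of 5 platelet markers 1, Pf4, was higher in replicate 2, where Clec1b, a platelet receptor, was level. The 5 B cell markers summed to 83.0 TPM in replicate 1 and 68.0 TPM in replicate 2, beside Siglecg and Fcer2a. The 8 granulocyte markers summed to 94.6 TPM in replicate 1 and 64.8 TPM in replicate 2, and 1 of them, Elane, was higher in replicate 1 by the rule. The 5 platelet markers summed to 15.4 TPM in replicate 1 and 25.4 TPM in replicate 2. Without Pf4, the other 4 summed to 7.74 TPM in replicate 1 and 8.10 TPM in replicate 2, with 2 of them higher in each library. Of the natural killer cell and plasmacytoid dendritic cell markers, Klrb1c and Cox6a2 were higher in replicate 2 by the rule. The rest of these lists did not move as one. By TPM, 2 of the 4 natural killer cell markers and 5 of the 6 plasmacytoid dendritic cell markers were higher in replicate 1. The 6 thymic epithelial markers summed to 1005 TPM in replicate 1 and 1338 TPM in replicate 2, all 6 higher in replicate 2 and none past the rule. The part of these cells in the differences was not tested.

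**Figure D3:**
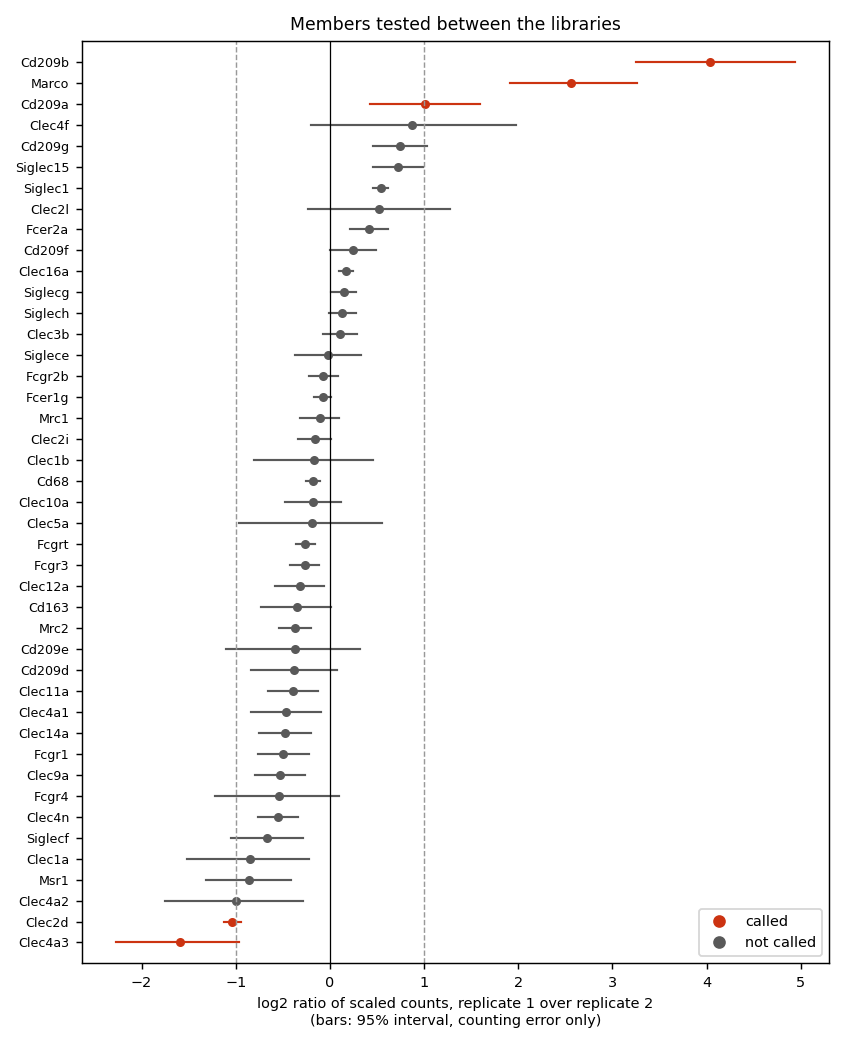
Log2 ratio of scaled counts, replicate 1 over replicate 2, for the 43 members tested, with 95% intervals that cover counting error only and dashed lines at 2-fold. The 5 members that passed the rule are drawn in red, Cd209b, Marco and Cd209a at the top and Clec2d and Clec4a3 at the bottom, and most of the others lie between the lines.

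As a list, the 35 members at 1 TPM or more had a median log2 TPM ratio of -0.08 (replicate 1 over replicate 2, with 0.1 TPM added), against 0.05 for protein-coding genes at that level. Of these members 15 were higher in replicate 1 and 20 in replicate 2. On counts scaled by TMM the medians were -0.17 for the members and 0.01 for the protein-coding genes.

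Of the 57 members, 35 lay in 5 genomic clusters of at least 3 members with gaps of at most 500 kb. The Fc receptor cluster (chr1:170958617-171234365) held Fcgr2b, Fcgr4, Fcgr3 and Fcer1g, all at 1 TPM or more, with means of 1.03 to 108 TPM. The Clec4 cluster (chr6:122921848-123289870) held 9 members with no other protein-coding gene between them, and 3 of these, Clec4n, Clec4a1 and Clec4a3, reached 1 TPM. The cluster of Clec2h to Clec1a (chr6:128662385-129452000) held 10 members, 5 of them at 1 TPM or more, and Clec2d, with a mean of 54.1 TPM, lay beside Clec2e, with 0.07 TPM. The Siglec cluster (chr7:43351341-43660161) held Siglecf, Siglecg and Siglece. The CD209 cluster (chr8:3681737-4137707) held Fcer2a, Clec4g and the 7 CD209 genes, and 6 of these 9 reached 1 TPM.

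The direction between the libraries is given here for each cluster, beside the 57 members as a whole, of which 20 were higher in replicate 1 and 34 in replicate 2 by TPM, or 17 and 38 by scaled counts. Of all protein-coding genes, 9594 were higher in replicate 1 and 8561 in replicate 2 by TPM. All 10 members from Clec2h to Clec1a had a higher level in replicate 2 under each of 5 scalings, although only Clec2d passed the rule. Among them, Clec2h, Clec12b, Clec2g and Clec2e had at most 13 counts in a library and were not tested. Clec1b was nearly level, with 1.10 TPM in replicate 1 and 1.11 TPM in replicate 2. Of the 9 Clec4 genes, 0 were higher in replicate 1 and 7 in replicate 2 by TPM, and 1 was higher in replicate 1 by scaled counts. In that cluster too, Clec4b1, Clec4b2, Clec4d and Clec4e had at most 13 counts in a library. Of the 9 genes from Fcer2a to Cd209g, 7 were higher in replicate 1 and 2 in replicate 2 by TPM, or 6 and 3 by scaled counts. Cd209c and Clec4g among them had at most 10 counts in a library. Of the 4 genes from Fcgr2b to Fcer1g, 1 was higher in replicate 1 and 3 in replicate 2 by TPM, or 0 and 4 by scaled counts. Of the 3 genes from Siglecf to Siglece, 2 were higher in replicate 1 and 1 in replicate 2 by TPM, or 1 and 2 under the other scalings. Neighbouring genes are not independent, and sameness of direction within a cluster was not tested.

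**Figure D4:**
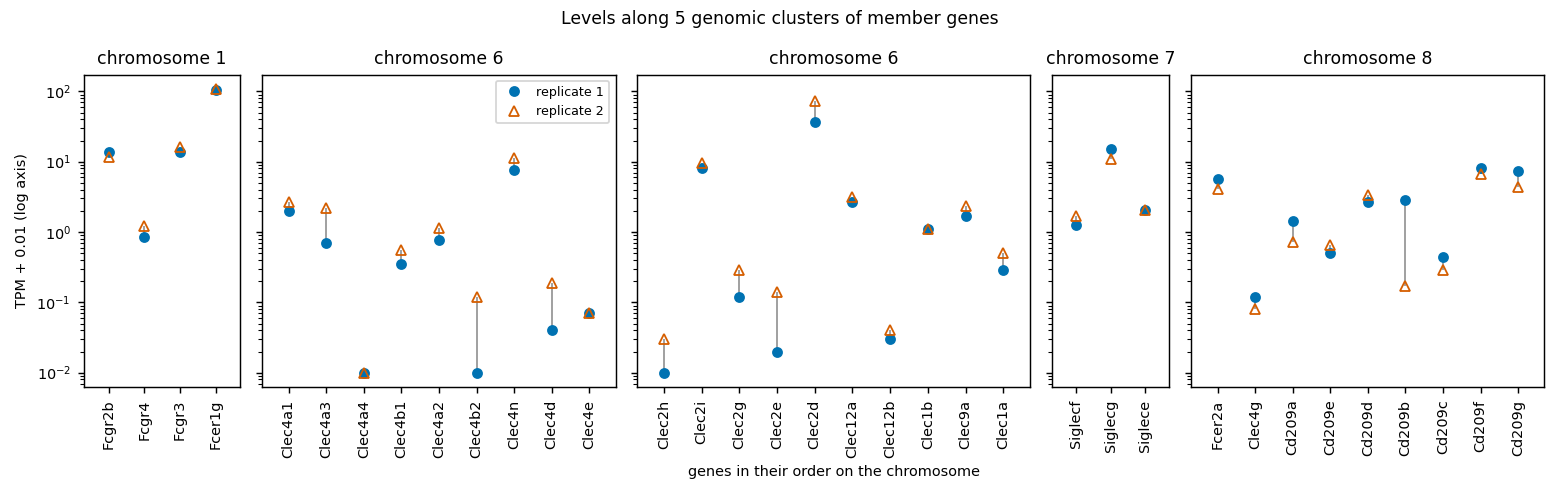
TPM plus 0.01 (log axis) of the 35 clustered members in replicate 1 (filled circles) and replicate 2 (open triangles), in their order along chromosomes 1, 6, 6, 7 and 8. Clec2d lies far above its neighbour Clec2e in both libraries, and Cd209b has a wide gap between its own circle and triangle.

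Some members share sequence, and a read from it does not by itself show its gene, although its mate may. Of the 57 members, 40 shared no run of 76 bases, the read length, with any other gene's transcripts on the same strand, and 3 shared more than 10% of their runs: Cd209f (23.4%, with Cd209g), Cd209g (13.1%) and Clec4a4 (12.6%, with Clec4a2). Counts that were not whole, to a tolerance of 0.005, occurred in 5 members, Fcgr2b, Fcgr3, Cd209f, Cd209g and Clec2i. The activating receptor Fcgr3 and the inhibitory receptor Fcgr2b share the longest identical coding stretch of their pair over 129 bases, from base 278 to 406 of the 1020 coding bases of Fcgr2b-201 and from base 263 to 391 of the 801 of Fcgr3-201. It is shown, on chromosome 1, because a read from within it does not by itself tell these opposed receptors apart.
Fcgr2b and Fcgr3: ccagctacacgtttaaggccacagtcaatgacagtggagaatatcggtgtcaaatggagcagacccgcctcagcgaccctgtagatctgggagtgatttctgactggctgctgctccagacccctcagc

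Fcgr2b had 574.44 and Fcgr3 550.56 estimated counts in replicate 1, which sum to 1125. In replicate 2, Fcgr2b had 811.66 and Fcgr3 895.34, which sum to 1707. The sums are whole while the parts are not, as a division of shared reads within the pair would leave them. Fcgr2b took 49.8% of the TPM of the pair in replicate 1 and 41.5% in replicate 2. Cd209f and Cd209g share a longer coding stretch, of 330 bases, and Cd209f had 268.55 and Cd209g 227.45 counts in replicate 1, which sum to 496. In replicate 2 they had 306.44 and 182.56 counts, which sum to 489, and Cd209f took 52.2% of the TPM of the pair in replicate 1 and 60.5% in replicate 2. The levels of these 4 genes are therefore uncertain as single values, while each pair's sum of counts is not touched by the division within it. A pair's sum of TPM can be, because TPM divides each gene's counts by its own length. Clec9a and Clec1b overlap by 184 exonic bases on the same strand. A read from that overlap does not by itself tell them apart, but the counts of both genes were whole in both libraries.

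Splice forms could be compared for 21 detected members with several annotated transcripts. The leading transcript took a median of 76.01% of the TPM of its gene, against 66.7% for 9441 protein-coding genes at that level. It was the same in both libraries for 19 of the 21 (90.5%), against 88.3% of those genes. Fcer1g-201 took 94.5 ± 1.09% (SD, n = 2) of Fcer1g, Siglec1-201 took 91.2 ± 3.19% of Siglec1 and Fcgr3-201 took 83.0 ± 3.95% of Fcgr3. Cd68-201 took 62.4 ± 0.91% of Cd68, and the processed transcript Cd68-203, of 612 bases, took most of the rest with 37.3%. Of the counts, Cd68-203 had less, with 19.4% in replicate 1 and 18.3% in replicate 2. The 7 members whose leader took under 50% of the TPM included Clec16a, with Clec16a-211 at 36.4%, and Fcgr2b, with Fcgr2b-202 at 36.7%. Of the counts, Clec16a-211 had 72.6% in replicate 1 and 63.5% in replicate 2.

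The leader was a protein-coding transcript in 20 of the 21 members, and the exception was Siglecg. Its leader by TPM was Siglecg-202, a retained-intron transcript of 382 bases, with 47.0 ± 5.07% of the TPM but 5.52% of the counts in replicate 1 and 3.92% in replicate 2. The coding transcript Siglecg-201 had 26.8% of the TPM, and 44.4% of the counts in replicate 1 and 31.8% in replicate 2. TPM divides by length, so a short transcript weighs more in it than in counts, and the TPM of Siglecg depends on this one. The libraries differed in their leader for Siglech, where Siglech-205 had 46.8% in replicate 1 and 39.3% in replicate 2 and Siglech-206 had 34.4% in replicate 1 and 45.3% in replicate 2. They differed also for Clec4a3, where Clec4a3-201 had 0.68 TPM in replicate 1 and 0.67 TPM in replicate 2, while Clec4a3-202 had 0 TPM in replicate 1 and 1.53 TPM in replicate 2. The gap between the libraries in Clec4a3 thus lay in 1 transcript, on few counts.

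**Figure D5:**
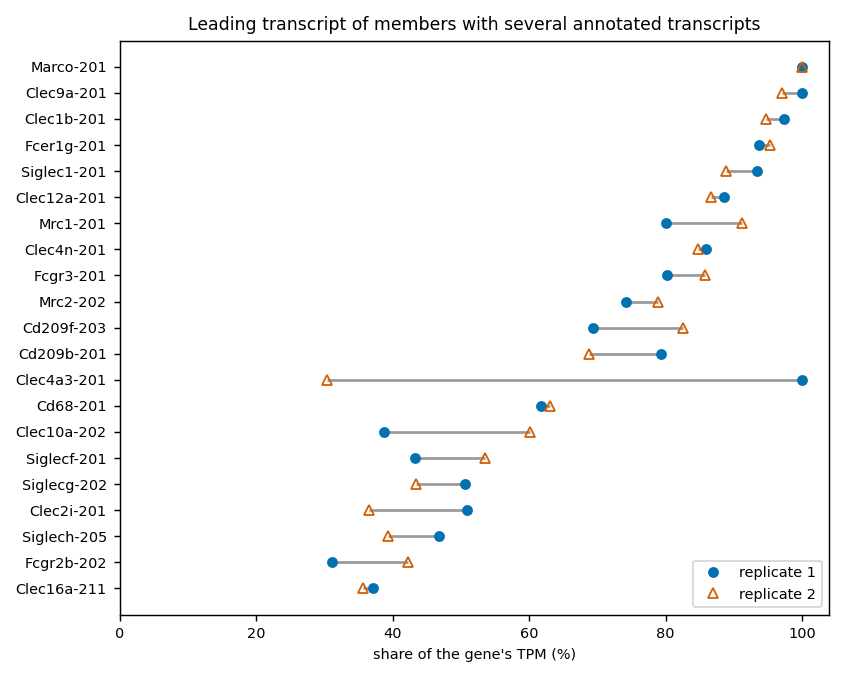
Share of the gene's TPM (%) taken by the leading transcript in replicate 1 (filled circles) and replicate 2 (open triangles) for 21 members with several annotated transcripts, ordered by the mean share. Marco-201 lies at 100% in both, Clec16a-211 lies lowest, and Clec4a3-201 has the widest gap between the libraries.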

How the data were processed

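The authors deposited tables of genes and of transcripts, 1 of each per library, which list, per the file headers, unnormalised expected counts (fragments estimated for each feature), posterior means of these, and TPM scaled over all features. The deposited bounds of the TPM interval, a signal on the TPM scale, were used as descriptions only. Quantification was on mm10 with GENCODE M4, per the deposited text files. Which aligner and quantifier were used is not given in the sources used here. Per the labels, the libraries are stranded, with paired reads of 76 bases. The authors' contigs and junctions on mm9 were not used here.

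Symbols, classes and coordinates (GRCm38) came from GENCODE M21, matched on the gene ID without version, for 42462 of 43346 genes. Detection was a mean of at least 1 TPM. Expected counts were rounded to whole numbers and tested with a two-sided exact binomial test (SciPy 1.17.1) against TMM-scaled library sizes (edgeR 4.0.16, R 4.3.3) over the 17199 genes kept by filterByExpr, adjusted by Benjamini–Hochberg and tested on simulated data. The simulated counts varied by counting error only, so they do not show how the test behaves with the wider spread of these libraries. Alternatives used DESeq2 1.42.0 size factors, unscaled sizes, no filter, posterior mean counts and edgeR's negative binomial exact test. The median chi-square between the libraries' counts was 6.32 over 17997 genes, against 0.455 for sampling noise, so they are not 1 library deposited again. This does not show separate animals. Ratios are replicate 1 over replicate 2, and intervals cover counting error only, and no molecular identifiers to mark PCR copies are named.

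Members and lists were chosen with earlier results of these data known. Values per library are given for members at 10 TPM or more, for the 3 highest members of each role group and for members that differed between the libraries. A few other members, and genes of the signalling, relative and marker lists, are named beside these.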

Additional observations from a re-analysis of the deposited data

How the results depend on the processing

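Of 336 recomputed values, 265 met the criterion for no change: the same direction and side of the 2-fold line for ratios, within 1.5 times for counts, and within the spread between the libraries for levels and transcript shares. For the transcript share of a single gene, 1 library alone always lies within that spread, so such values could only meet the criterion. A wide spread also makes it easy to meet, so the tally does not show how well levels hold. Sizes could still move: Cd209b's log2 ratio came to 1.72 with 1 TPM added, against 3.48, and the CD209 median was 0.70 or 2.65 TPM in single libraries, against 1.49. No ratio past 2-fold changed sign, and the rest are given here or are levels and transcript shares of single genes that moved by more than the spread between the libraries. Detection held 35 members at a mean of 1 CPM, 41 at 0.5 TPM, 27 at 2 TPM, 36 by posterior mean TPM and 33 in either library alone. The 5 members that differed between libraries became 11 at 1.5-fold (where 10.8% of all genes passed) and 2 with the negative binomial test. The count stayed at 5 with DESeq2 size factors, with posterior mean counts and with unscaled sizes, but the last lost Cd209a and gained Clec4a2. With no filter on low counts it was 6, by adding Clec2e. The median level of the scavenger and mannose receptors was 4.83 in CPM against 1.55 in TPM, and 1.46 to 1.93 TPM leaving out 1 library. In CPM the medians of the other C-type lectin-domain genes and the soluble members were 2.24 and 2.32, against 0.86 and 1.77 in TPM. The Clec2 median was 0.352 in CPM and 0.535 by posterior mean TPM, against 0.425. The leading transcript's median share was 80.8% of expected counts, and 78.8% to 79.3% in single libraries, against 76.01%. CPM is not divided by length and TPM is. Of 124 single-gene ratios 116 were unaltered in direction and side of the 2-fold line: Clec4a3 came to -0.93 with 1 TPM added, Clec2d passed 2-fold in CPM at -1.11 and in TPM over protein-coding genes at -1.06, and 5 uncalled ratios near 0 changed sign, of Clec10a, Clec1b, Fcgr2b and Mrc1. By TPM 5 of the 6 Siglecs were higher in replicate 1, and 4 under the other scalings. Members with 0 counts, Clec3a and Clec4a4, could hold up to 3 counts per library at this depth. No paired analysis was possible because there is 1 group.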

Other observations

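Relatives of these families that the name rule does not take were also measured. Of 25 such genes, 18 reached 1 TPM and 4 reached 10 TPM: the lipoprotein receptor Scarb1 with 63.0 TPM in replicate 1 and 63.6 TPM in replicate 2, the scavenger receptor Stab1 with 14.4 TPM in replicate 1 and 20.95 TPM in replicate 2, the dendritic cell lectin Ly75 (DEC-205) with 14.6 TPM in replicate 1 and 16.4 TPM in replicate 2, and the cytosolic antibody receptor Trim21 with 11.4 TPM in replicate 1 and 14.0 TPM in replicate 2. The Siglec relatives Cd22, of B cells, and Cd33, of myeloid cells, had 7.37 and 4.80 TPM in replicate 1 and 6.65 and 5.21 TPM in replicate 2. Of the 23 that could be tested between the libraries, 1 differed by the same rule, the hepatocyte asialoglycoprotein receptor chain Asgr2, with 29 counts in replicate 1 and 19 in replicate 2 and an adjusted p of 0.03697 in the exact binomial test. The other chain, Asgr1, had 39 counts in replicate 1 and 2 in replicate 2 and was not kept by the filter for the test.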
